A study of Mus musculus with 59 samples.

Results

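The Polycomb complex genes described here are 10 genes chosen by name: Ezh2, Eed, Suz12 and Jarid2 of Polycomb repressive complex 2 (PRC2), Ring1, Rnf2, Bmi1, Pcgf1 and Pcgf6 of Polycomb repressive complex 1 (PRC1), and Kdm6b, a demethylase that removes the mark PRC2 writes. All 10 were found by symbol among the 24421 genes of the expression table. The RNA came from cloned mouse embryos: in somatic cell nuclear transfer (SCNT), an oocyte loses its own chromosomes, receives the nucleus of a body cell and is then activated to develop. The groups were untreated 1-cell embryos collected 13 to 14 h after activation (5 libraries), untreated early 2-cell embryos at 20 to 21 h (5), TSA-treated late 2-cell embryos at 33 to 34 h (5), TSA (trichostatin A) being a histone deacetylase inhibitor, and untreated late 2-cell embryos of the same age (5). All of these embryos are labelled BDF1, the growth protocol gives superovulated females of 5 to 7 weeks as the oocyte source, and cumulus cells are named as the donor cells. The sources used here do not give the dose and duration of TSA or the number of embryos in a library.

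Polycomb proteins keep developmental genes silent. PRC2, with the methyltransferase Ezh2 or Ezh1 and the core subunits Eed and Suz12, puts methyl groups on lysine 27 of histone H3 (H3K27me3), while PRC1, with Rnf2 or Ring1 as its ubiquitin ligase and a PCGF subunit that defines the type of complex, ubiquitinates histone H2A (H2AK119ub). In mouse oocytes PRC2 also lays down H3K27me3 that silences the maternal copy of certain genes in the early embryo.

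The table gives 1 value per gene and group, as log2(FPKM + 1), where FPKM is fragments scaled by transcript length and by library size. This scaling need not make levels fully comparable between genes, so orders, ratios and shares between genes are given as listed. There is no SD, no n and no p-value for any difference, and neighbours in an order of levels cannot be told apart from equal. Depth is unknown. An FPKM is a share of the poly(A) RNA of its column, and in these bulk samples fewer cells of a type and less RNA per cell cannot be told apart. Genes at or above 1 FPKM numbered 9419 in 1-cell, 9477 in early 2-cell, 11912 in TSA-treated late 2-cell and 12215 in untreated late 2-cell embryos. Oocyte transcripts were present in every column, with 13 of 13 markers at 1 FPKM or more, and 7, 6, 11 and 10 of 11 markers of the 2-cell stage reached 1 FPKM in the same order of groups. Low values need care, since Gapdh, a glycolytic gene used by most cells, was listed at 0.028, 0.17, 0.38 and 0.91 FPKM in that order.

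The catalytic part of PRC2 was abundant up to the early 2-cell stage and several-fold lower at the late 2-cell stage. Ezh2, the methyltransferase, was at 350, 315 and 45.1 FPKM in untreated 1-cell, early 2-cell and late 2-cell embryos, ranks 238, 245 and 2296 of all genes. Eed, which binds the methylated histone and is needed for full activity, was at 289, 260 and 48.9 FPKM in the same stages. Both genes were thus near their 1-cell level at the early 2-cell stage, and the late 2-cell column stood apart. Late minus early, the difference on the log2(FPKM + 1) scale used for all differences here was -2.78 for Ezh2 and -2.39 for Eed. Suz12, the scaffold of the complex, was at 112, 135 and 98.5 FPKM, a late minus early difference of -0.45. The level of Ezh2 was 3.12 times that of Suz12 in 1-cell, 2.34 times in early 2-cell and 0.458 times in late 2-cell embryos, so the order of the core subunits was the opposite at the last stage. Jarid2, an accessory subunit that brings PRC2 to chromatin, was at 48.9, 29.2 and 16.1 FPKM and was lower at each later stage. RefSeq (GRCm38.p6) places another gene, F830010H11Rik, over part of Ezh2 on chromosome 6 (47530274 to 47595270). Since strand is not stated for the counting, reads of the overlapping stretch cannot be assigned with certainty.

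With TSA, Ezh2 was the member with the highest positive difference. It was at 68.8 FPKM in TSA-treated late 2-cell embryos, against 45.1 FPKM in untreated late 2-cell embryos, a difference of 0.60, and it was 0.74 after median-ratio scaling and 0.66 after quantile normalization. For Eed the levels were 55.6 FPKM with TSA and 48.9 FPKM without (0.18). Suz12 was lower, at 79.1 FPKM with TSA and 98.5 FPKM without (-0.31), and so was Jarid2, at 13.4 against 16.1 FPKM (-0.25). The level of Ezh2 over that of Suz12 was 0.870 with TSA and 0.458 without. Even so, Ezh2 with TSA stayed well under the 315 FPKM of early 2-cell embryos.

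**Figure D1:**
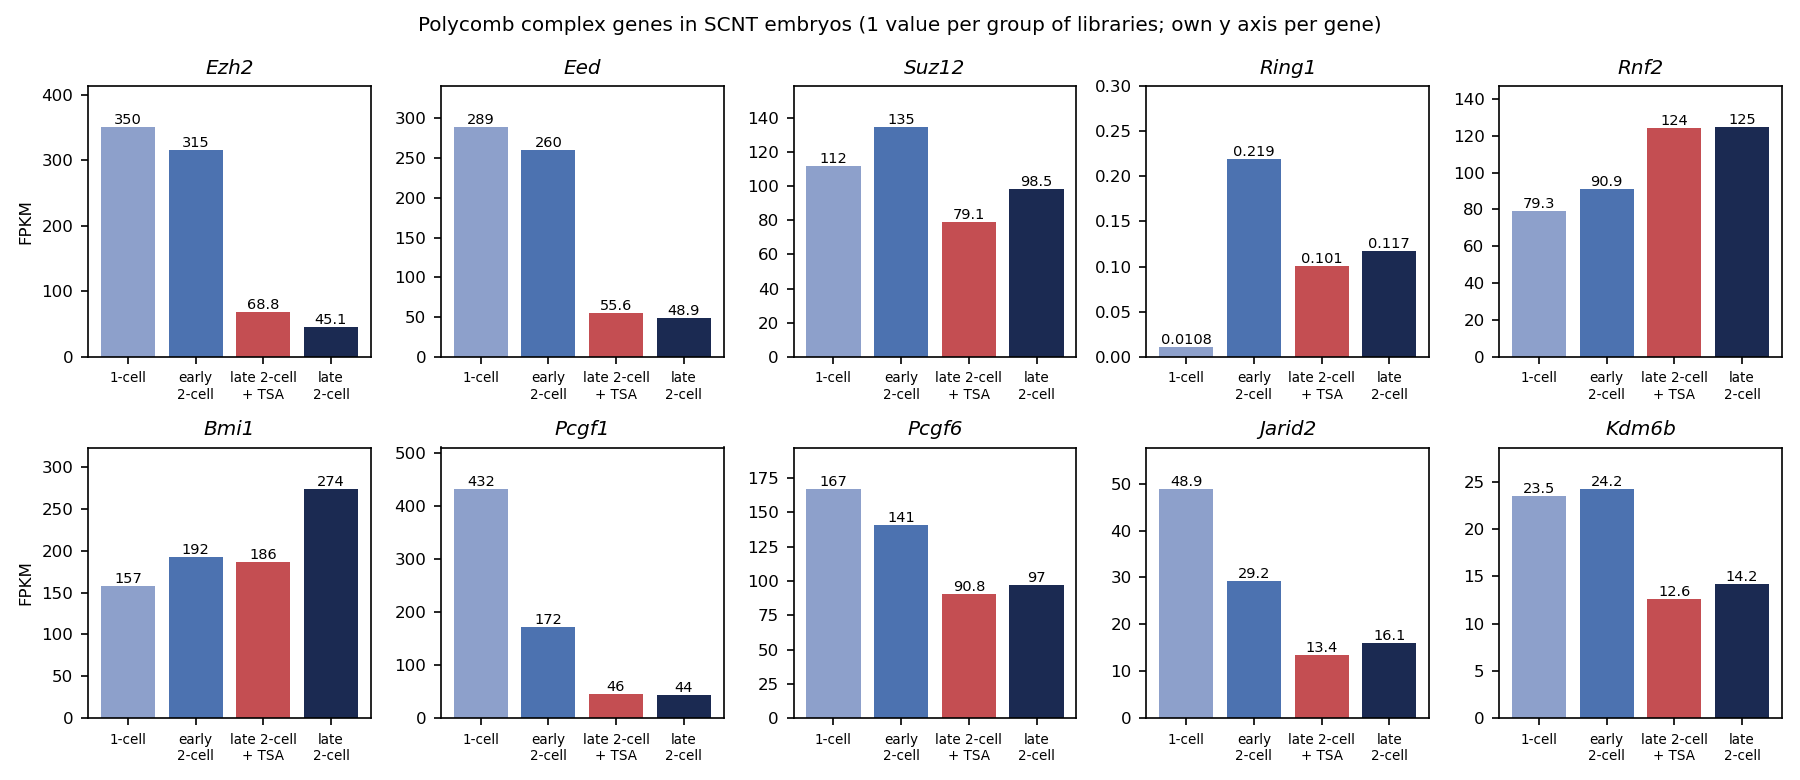
FPKM of each of the 10 genes (y axis, linear, own scale per gene) in untreated 1-cell and early 2-cell, TSA-treated late 2-cell and untreated late 2-cell embryos, with 1 bar for the authors' value of each group and no error bar. Ezh2, Eed and Pcgf1 have short bars in both late 2-cell groups, Rnf2 and Bmi1 do not, and Ring1 stays under 0.3 FPKM.

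The promoters of 4 members are shown because Ezh2 and Eed had the most negative late minus early differences among the members, while Rnf2 and Bmi1 were the members with positive ones. RefSeq promoter windows, from 250 bases before to 50 bases after a start site, were found for 8 of the 10 genes (not for Pcgf1 and Kdm6b). Each is written 5′ to 3′ on the strand of the gene in GRCm38.p6, and capitals mark a match to a searched motif. The windows lie at chr6:47594981-47595280, minus strand (Ezh2), chr7:89980927-89981226, minus strand (Eed), chr1:151500942-151501241, minus strand (Rnf2) and chr2:18676768-18677067, plus strand (Bmi1).
Ezh2: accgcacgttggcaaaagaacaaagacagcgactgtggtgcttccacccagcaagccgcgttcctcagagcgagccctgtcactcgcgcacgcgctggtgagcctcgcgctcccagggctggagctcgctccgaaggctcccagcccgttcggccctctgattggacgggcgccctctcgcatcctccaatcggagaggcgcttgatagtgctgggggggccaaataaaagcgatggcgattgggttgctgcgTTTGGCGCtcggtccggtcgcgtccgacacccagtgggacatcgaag
Eed: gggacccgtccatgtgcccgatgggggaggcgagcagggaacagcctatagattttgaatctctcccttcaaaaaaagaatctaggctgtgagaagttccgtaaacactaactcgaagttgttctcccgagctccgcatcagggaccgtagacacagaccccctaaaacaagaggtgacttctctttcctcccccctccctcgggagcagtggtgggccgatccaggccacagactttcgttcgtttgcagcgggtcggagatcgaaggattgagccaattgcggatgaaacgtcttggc
Rnf2: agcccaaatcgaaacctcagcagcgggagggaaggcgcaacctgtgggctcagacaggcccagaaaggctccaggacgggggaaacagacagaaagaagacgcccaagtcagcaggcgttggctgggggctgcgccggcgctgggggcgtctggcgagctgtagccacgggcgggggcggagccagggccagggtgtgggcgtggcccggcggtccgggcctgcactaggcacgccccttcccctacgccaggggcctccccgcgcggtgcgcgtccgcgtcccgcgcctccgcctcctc
Bmi1: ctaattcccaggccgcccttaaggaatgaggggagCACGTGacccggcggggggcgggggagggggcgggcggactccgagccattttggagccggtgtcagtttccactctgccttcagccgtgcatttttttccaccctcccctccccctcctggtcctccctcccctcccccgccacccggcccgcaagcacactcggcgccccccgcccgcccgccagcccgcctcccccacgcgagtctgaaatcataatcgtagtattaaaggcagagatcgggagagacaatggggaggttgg
The searched motifs were TTTCGCGC and TTTGGCGC, sites of the E2F type known to control Ezh2 in cultured cells, the E box CACGTG and AANATGGCG for YY1, all on both strands. Over the 8 genes the matches were TTTGGCGC in Ezh2, starting at base 254 of the window, and CACGTG in Bmi1, starting at base 36, and no matches overlapped. Among 32851 promoter windows of the same length, 0.514% held TTTGGCGC, 0.323% TTTCGCGC, 7.15% CACGTG and 2.38% the YY1 letters. A match is a string of letters and not a measured site. Counts of CG dinucleotides in the windows of the 8 genes ran from 17 in Eed to 41 in Suz12, against a median of 7 and quartiles of 3 and 20 over all windows, so Eed lay within the middle range.

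Of 11 other PRC2 genes 9 were kept (at least 1 FPKM in either column), of which 4 were 2-fold or more higher and 2 lower in late than in early 2-cell embryos, with a median difference of 0.90. Over all genes 47.9% were that much higher and 10.9% lower, with a median of 0.92, so the share of higher genes was near that of the table. After either other scaling 1 of the 9 was higher (Mtf2) and 2 lower (Ezhip and Rbbp7). Over all 12794 genes kept, 4590 were higher and 2360 lower after median-ratio scaling, and 3414 and 3301 after quantile normalization. Ezh1, the second methyltransferase of PRC2, was at 16.5, 10.2 and 19.8 FPKM in 1-cell, early 2-cell and late 2-cell embryos. Ezh2 therefore made up 95.5%, 96.9% and 69.4% of the summed FPKM of the pair, and 83.1% in TSA-treated late 2-cell embryos, where Ezh1 was at 14.0 FPKM. Ezhip, listed under its older symbol AU022751 and known as an inhibitor of PRC2, was at 18.1 FPKM in late 2-cell and 273 FPKM in early 2-cell embryos (-3.84). Rbbp7, a histone-binding subunit that PRC2 shares with other complexes, was at 217 against 1341 FPKM (-2.62). Its gene overlaps Txlng, which was at 65.3 against 157 FPKM. Mtf2, a PCL subunit that guides PRC2 to CG-rich DNA, went the other way, at 343 FPKM in late 2-cell and 42.8 FPKM in early 2-cell embryos (2.97). Phf1, a second PCL subunit, was at 37.3 against 15.3 FPKM (1.23), and Lcor, whose long form joins PRC2, at 55.4 against 26.1 FPKM (1.06). Neither was 2-fold apart after median-ratio scaling (0.64 for Phf1, 0.46 for Lcor) or quantile normalization (0.39 and 0.34). At the first cleavage Ezhip was higher, at 273 FPKM in early 2-cell against 175 FPKM in 1-cell embryos (0.63), as was Aebp2, a partner of Jarid2, at 57.3 against 40.3 FPKM (0.50). Mtf2 was lower there, at 42.8 against 80.2 FPKM (-0.89), and so was Lcorl, at 11.4 against 23.4 FPKM (-0.98), a gene that overlaps Ncapg. With TSA, Rbbp7 was at 316 against 217 FPKM (0.54) and Mtf2 at 486 against 343 FPKM (0.50), while Lcorl was at 10.6 against 20.7 FPKM (-0.90) and Phf1 at 26.2 against 37.3 FPKM (-0.49).

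As listed, Rnf2 (Ring1B) held nearly all of the FPKM of the ubiquitin ligases of PRC1. Rnf2 was at 79.3, 90.9 and 125 FPKM in 1-cell, early 2-cell and late 2-cell embryos, and at 124 FPKM with TSA. Ring1 (Ring1A) was listed at 0.011, 0.22 and 0.12 FPKM in these stages and at 0.10 FPKM with TSA, under the filter of 1 FPKM in every column, so no fold is given. Rnf2 made up 99.76% of the sum of both genes in early 2-cell embryos and more in the other columns. These shares rest on Ring1 values that, like those of Gapdh, are under 1 FPKM in every column and need the same care. Whether Ring1 RNA is truly near absent cannot be told from them. The late minus early difference of Rnf2 was 0.45 as deposited, but -0.16 after median-ratio scaling and -0.0015 after quantile normalization, so its direction depends on the scaling. The TSA difference of Rnf2 was -0.0035, and 0.15 and 0.0056 under these scalings.

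The 3 PCGF members stood in another order at each stage. Pcgf1, which defines variant PRC1.1, was the most abundant of the 10 genes in 1-cell embryos and was at 432, 172 and 44.0 FPKM in 1-cell, early 2-cell and late 2-cell embryos. It was lower at each later stage, with differences of -1.32 (early minus 1-cell) and -1.95 (late minus early). Bmi1 (Pcgf4), which defines canonical PRC1, was at 157, 192 and 274 FPKM and led the 10 genes at the late 2-cell stage. Its late minus early difference was 0.51 as deposited, -0.11 after median-ratio scaling and 0.42 after quantile normalization. Pcgf6, which defines variant PRC1.6, was at 167, 141 and 97.0 FPKM, lower at each stage. Bmi1 was at 0.364 times the level of Pcgf1 in 1-cell, 1.11 times in early 2-cell and 6.22 times in late 2-cell embryos. This ratio within a column does not depend on a factor that scales the whole column.

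Set beside its paralogs, which were compared after their values had been seen, Pcgf1 made up 56.4% of the summed FPKM of the 6 PCGF genes in 1-cell, 33.6% in early 2-cell and 7.63% in late 2-cell embryos. Bmi1 made up 20.5%, 37.4% and 47.4%. Pcgf5, a variant PCGF gene outside the 10, was at 147 FPKM in late 2-cell and 4.00 FPKM in early 2-cell embryos (4.89), the highest difference in the list of 18 other variant PRC1 genes, and its share was 25.45% against 0.779%. Pcgf2 (Mel18), the closest relative of Bmi1, was listed at 0 in early 2-cell embryos and at no more than 0.25 FPKM elsewhere. With TSA the member with the most negative difference was Bmi1, at 186 FPKM in TSA-treated and 274 FPKM in untreated late 2-cell embryos (-0.56). Only as deposited was the level with TSA near the early 2-cell level of 192 FPKM. After median-ratio scaling the late minus early (-0.11) and the TSA difference (-0.40) were both negative, so the level with TSA lay under the early one. The share of Bmi1 in the PCGF sum was 36.9% with TSA and 47.4% without, and that of Pcgf5 was 33.3% with TSA. Pcgf1 was at 46.0 against 44.0 FPKM (0.06) and Pcgf6 at 90.8 against 97.0 FPKM (-0.09). The sign of the Pcgf6 difference was the opposite after median-ratio scaling (0.06).

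**Figure D2:**
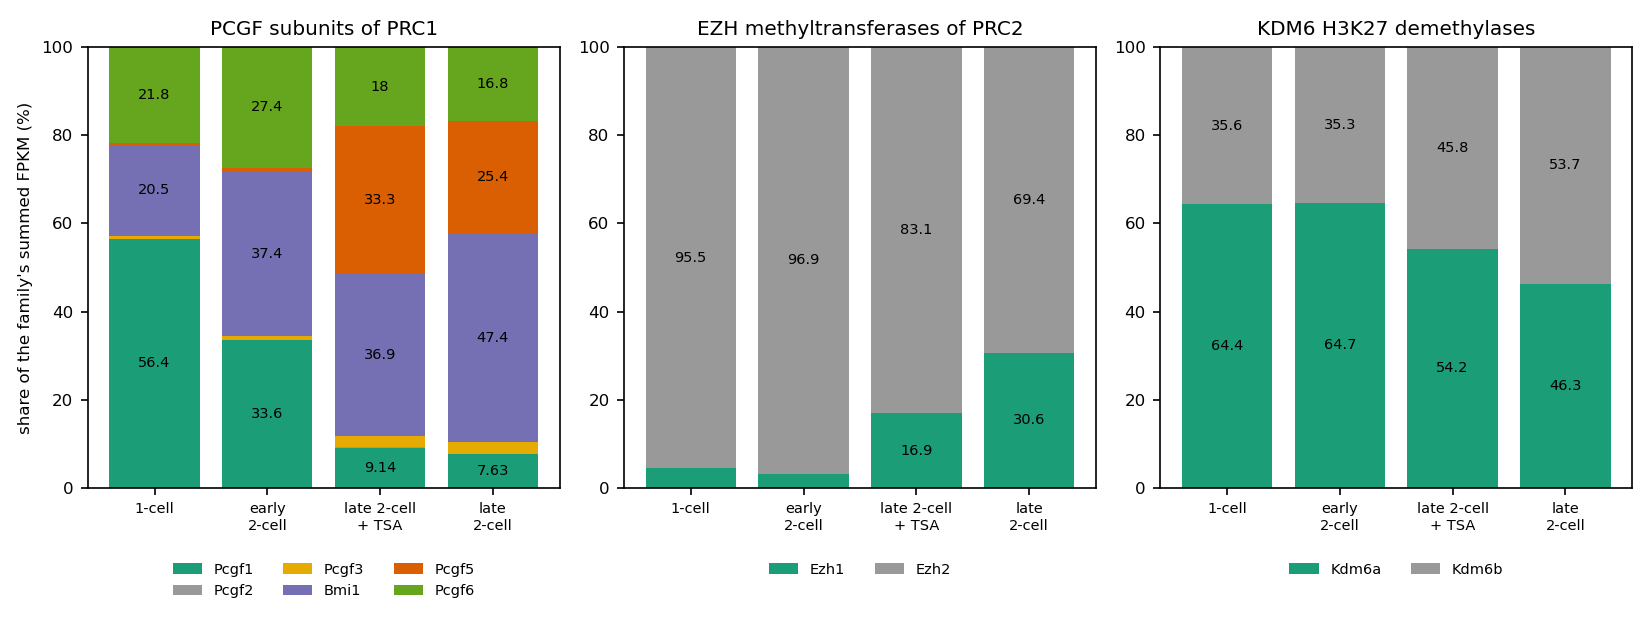
Share of the summed FPKM of each gene family (y axis, percent) held by each paralog in untreated 1-cell and early 2-cell, TSA-treated late 2-cell and untreated late 2-cell embryos, as stacked bars from 1 value per group. The Pcgf1 share is 56.4% at the 1-cell stage and 7.63% at the late 2-cell stage, and the Ezh2 share is 83.1% with TSA and 69.4% without.

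The other canonical PRC1 genes were at low levels next to Bmi1 and Rnf2. The 10 listed genes reached at most 34.7 FPKM (Phc2, a polyhomeotic subunit that links complexes together) in untreated late 2-cell embryos. Phc2 was at 10.7 FPKM in early 2-cell embryos, a late minus early difference of 1.61 (0.69 after quantile normalization), and at 20.4 FPKM with TSA (-0.74). Scmh1, a partner of the polyhomeotic proteins, was at 9.11 FPKM in late 2-cell against 3.92 FPKM in early 2-cell embryos (1.04 as deposited, -0.06 after quantile normalization). With TSA it was at 5.15 against 9.11 FPKM (-0.72). Cbx2, the chromodomain subunit that led its family in every column, was at 9.18 FPKM with TSA, against 11.8 FPKM without (-0.34). Cbx8, another chromodomain subunit, was at 8.83 against 4.29 FPKM (0.90), and in plain FPKM the ratio was 2.06. With TSA, 6 of the 8 canonical genes that passed the filter were below 0 and 2 above, with a median of -0.54 and 0 at a difference of 1. Over all 12756 genes kept, 7238 were below 0 and 5518 above, with a median of -0.08. The median of the 8 was -0.42 after median-ratio scaling and -0.38 after quantile normalization. In late against early 2-cell embryos 5 of 8 were at least 2-fold higher and 0 lower, with a median of 1.04, where 47.9% of all genes were higher and 10.9% lower. After median-ratio scaling 2 were higher (Cbx7 and Phc2) and 0 lower, and after quantile normalization 1 was higher (Cbx7) and 1 lower (Phc1). Over all 12794 genes kept, 4590 were higher and 2360 lower after median-ratio scaling, and 3414 and 3301 after quantile normalization. Cbx7, at 2.62 FPKM in late and 0.084 FPKM in early 2-cell embryos, passed the filter only through the late column. It is thus higher there by the filter. Its gene overlaps Apobec3, which was at 5.03 against 0.011 FPKM.

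Of 18 other genes of the variant complexes, all kept, 9 were at least 2-fold higher and 1 lower in late against early 2-cell embryos (median 0.92), near the 47.9% higher and the median of 0.92 over all genes. Of the higher genes, Bcor, Bcorl1, E2f6 and Fbrsl1 were at 0.39, 0.40, 0.26 and 0.39 FPKM in early 2-cell embryos. They passed the filter only through the late column and are higher there by the filter. After median-ratio scaling 8 of the 18 were higher and 2 lower, and after quantile normalization 4 were higher (Pcgf5, L3mbtl2, Mga and E2f6) and 3 lower (Kdm2b, Auts2 and Fbrs). Over all 12794 genes kept, 4590 were higher and 2360 lower after median-ratio scaling, and 3414 and 3301 after quantile normalization. Kdm2b, which takes PRC1.1 to unmethylated CG-rich DNA together with Pcgf1, was at 7.34 FPKM in late 2-cell and 22.5 FPKM in early 2-cell embryos (-1.49). Of the proteins found with Pcgf6 in PRC1.6, L3mbtl2 was at 13.9 against 1.11 FPKM (2.82) and Mga at 215 against 43.6 FPKM (2.28). Max, which pairs with Mga on DNA, was at 66.3 against 83.1 FPKM (-0.32). In early 2-cell against 1-cell embryos Max was at 83.1 against 48.4 FPKM (0.77) and Usp7, a deubiquitinase found with PRC1, at 16.5 against 25.9 FPKM (-0.62). With TSA, Bcor, a subunit of PRC1.1, was at 8.12 against 3.85 FPKM (0.91) and Kdm2b at 11.3 against 7.34 FPKM (0.56), while Max was at 38.0 against 66.3 FPKM (-0.78) and Mga at 161 against 215 FPKM (-0.42).

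Kdm6b (Jmjd3), which removes methyl groups from H3K27, was the least abundant member after Ring1. It was at 23.5, 24.2 and 14.2 FPKM in untreated 1-cell, early 2-cell and late 2-cell embryos, with a late minus early difference of -0.73. In TSA-treated late 2-cell embryos it was at 12.6 FPKM, against 14.2 FPKM in untreated ones (-0.16). Gm51903 overlaps Kdm6b on chromosome 11 (69398508 to 69420367). Kdm6a (Utx), the related demethylase, was at 42.5, 44.5 and 12.3 FPKM in these stages, so that Kdm6b held 35.6%, 35.3% and 53.7% of the pair, and 45.8% with TSA. Usp16, which removes ubiquitin from H2A, was at 609 FPKM in late 2-cell against 415 FPKM in early 2-cell embryos, a difference of 0.55 as deposited and -0.07 after median-ratio scaling. It overlaps Cct8. Of the 7 listed enzymes that oppose Polycomb and their partners, 2 were at least 2-fold higher and 1 lower in late against early 2-cell embryos (median 0.55), where 47.9% of all genes were higher and 10.9% lower. After median-ratio scaling 1 was higher (Asxl2) and 2 lower (Kdm6a and Asxl1), with a median of -0.07. After quantile normalization 0 were higher and 3 lower (Kdm6a, Asxl1 and Asxl3), with a median of -0.05. Over all 12794 genes kept, 4590 were higher and 2360 lower after median-ratio scaling, and 3414 and 3301 after quantile normalization. Bap1, the H2A deubiquitinase that acts with Asxl proteins, was at 29.6 FPKM in late 2-cell against 12.8 FPKM in early 2-cell embryos (1.15), and with TSA at 18.6 against 29.6 FPKM (-0.64). Asxl2 was at 14.2 FPKM in late 2-cell against 3.61 FPKM in early 2-cell embryos (1.72) and Asxl1 at 7.30 against 14.1 FPKM (-0.86).

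Counted over the list, large differences with TSA were few, as they were over all genes. A gene was counted when its difference reached 1 in size (2-fold) and kept when it had at least 1 FPKM in either column. Of the 9 members kept, all but Ring1, 0 were 2-fold apart with TSA, where 6.59% of 12756 genes were (2.51% higher, 4.08% lower). With 9 members a count of 0 is near that share. Among 42 other complex genes kept of 46, 0 were 2-fold apart as well. The median difference was -0.09 for the 9 members, 0.02 for the other complex genes and -0.08 for all genes. Of the 9, 3 were above 0 and 6 below as deposited, and 5 above and 4 below after median-ratio scaling, which moved the median of all genes by 0.13 and put the median of the members at 0.06. As deposited, 5518 of all 12756 genes were above 0 and 7238 below. Over all genes, higher ones made up 38.1% of those counted, against 58.2% after median-ratio scaling and 52.7% after quantile normalization. In the early 2-cell against the 1-cell column, 1 of the 9 members was 2-fold apart (Pcgf1, lower), where 10.8% of 10117 genes were (3.72% higher, 7.12% lower), and 0 of 37 other complex genes. The medians were -0.15, -0.20 and -0.08 for members, other complex genes and all genes. There, higher genes made up 34.3% of all those counted as deposited, 48.2% after median-ratio scaling and 46.5% after quantile normalization.

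Between the 2-cell stages the members lay low in a table where most genes were higher. In late against early 2-cell embryos 3 of the 9 members were at least 2-fold lower (Ezh2, Eed and Pcgf1) and 0 at least 2-fold higher. Over 12794 genes, 10.9% were 2-fold lower and 47.9% 2-fold higher, 58.8% in all. The early column held 9477 genes at 1 FPKM or more and the late column 12215. A gene kept only through the late column is higher there by the filter. Such genes are part of these shares and of the median of all genes, while the 9 members reached 1 FPKM in both columns. The median difference was -0.73 for the members and 0.92 for all genes. Among 42 other complex genes, 20 were higher and 4 lower, with a median of 0.85. Of the 20, Cbx7, Bcor, Bcorl1, E2f6 and Fbrsl1 passed the filter only through the late column. Median-ratio scaling and quantile normalization moved the median of all genes by -0.45 and -0.87, and with them 7 and 5 of the 9 members were 2-fold lower. Over all 12794 genes kept, 2360 and 3301 were 2-fold lower under these scalings, against 1399 as deposited. The added members were Jarid2 and Kdm6b under both, and Suz12 and Pcgf6 under median-ratio scaling. Set against the median of all genes as deposited, the members ran from -3.69 (Ezh2) to -0.41 (Bmi1). After quantile normalization Bmi1 (0.42) lay above the median of all genes (0.05). Counted as deposited, higher genes made up 81.4% of all 2-fold differences, against 66.04% and 50.8% after the 2 scalings. In the same comparison, 6 of 13 oocyte markers were at least 2-fold lower and 2 higher, with summed FPKM of 5637 in 1-cell, 4639 in early 2-cell, 1320 in TSA-treated late 2-cell and 1875 in untreated late 2-cell embryos, and their part in the members' differences was not tested. This comparison and the other 2 share columns, so their differences are not independent.

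**Figure D3:**
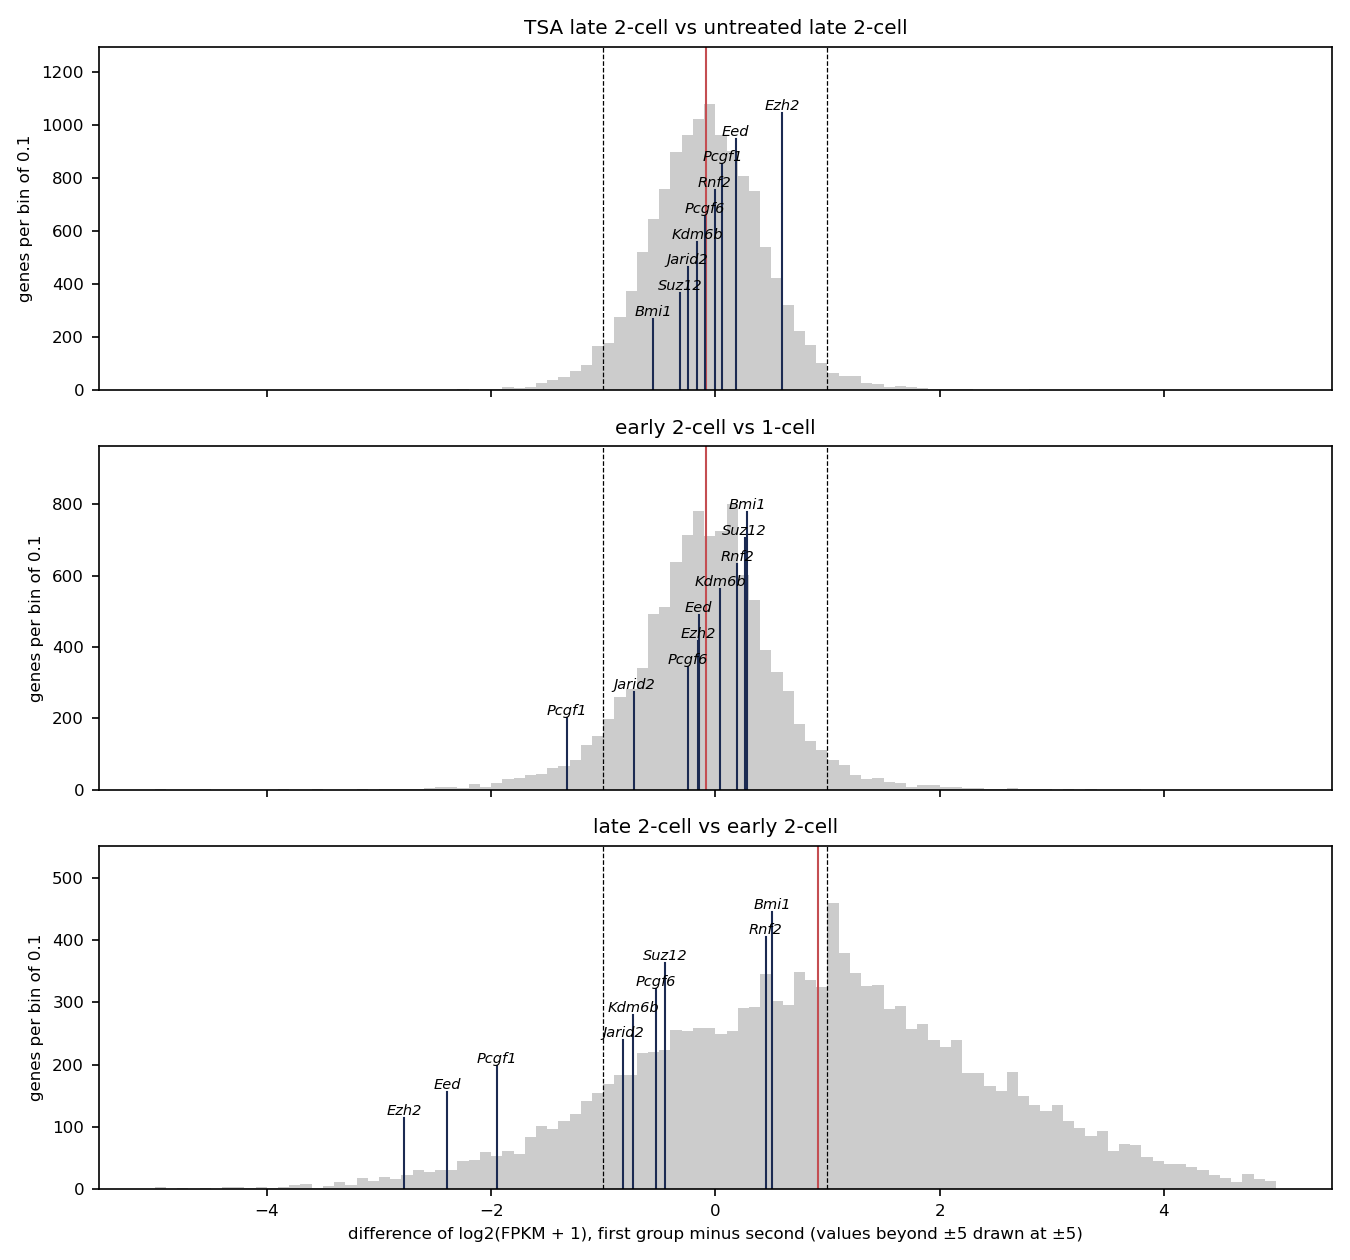
Difference of log2(FPKM + 1) (x axis) against the number of kept genes per bin of 0.1 (y axis, grey) for the 3 comparisons, with the 9 kept members as labelled lines whose heights carry no value, the median of all genes in red and dashed lines at 2-fold. With TSA the members lie between -0.56 and 0.60, and in late against early 2-cell embryos Ezh2, Eed and Pcgf1 lie left of -1.

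**Figure D4:**
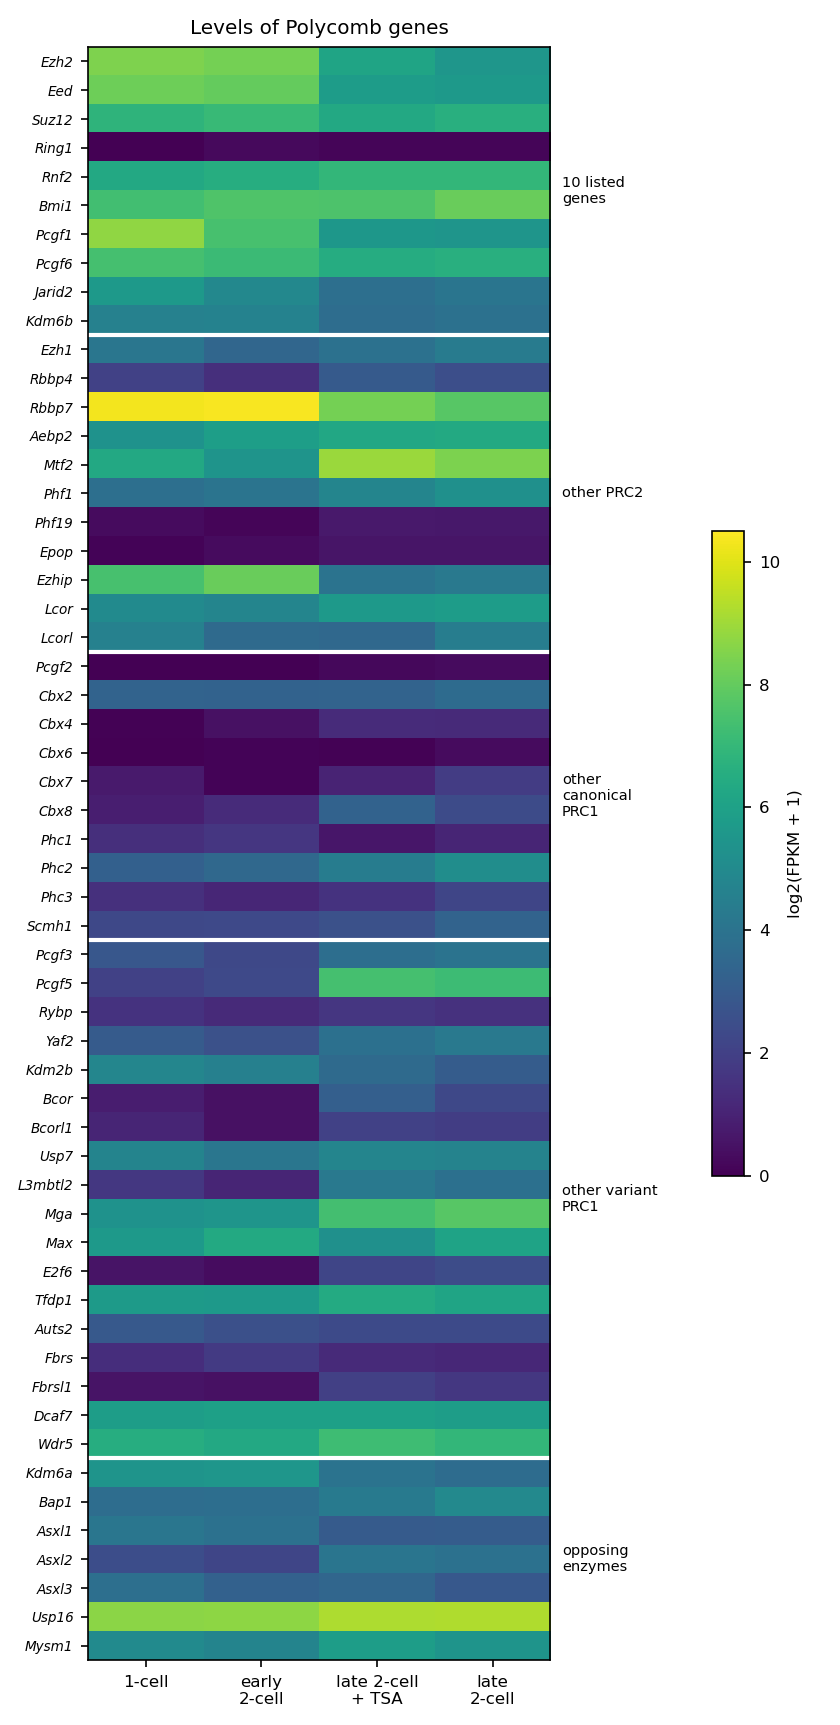
Level of the 10 genes and of 46 other Polycomb genes as log2(FPKM + 1) (colour) in untreated 1-cell and early 2-cell, TSA-treated late 2-cell and untreated late 2-cell embryos, 1 value per group. Rbbp7 and Ezhip are bright at the early stages, Mtf2, Pcgf5 and Mga at the late 2-cell stage, and most canonical PRC1 partners are dark in every column.

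The profiles of members over the 4 columns were compared by the distance between their centred log2(FPKM + 1) values, a description over 4 points that share columns. Ezh2 and Eed were nearest to each other among the members, at a distance of 0.35. Rnf2 and Bmi1 were likewise nearest to each other (0.43), as were Pcgf6 and Kdm6b (0.23). Pcgf1 had no close member, the nearest being Eed at 0.86. Among 13410 genes the 2 nearest to Ezh2 were Aurkc (0.09) and Kcnh5 (0.15), those nearest to Eed were Fbxo43 (0.12) and Taf9b (0.12), and the nearest to Bmi1 was Gm1673 (0.013).

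Genes known to be imprinted through maternal H3K27me3 in mouse embryos were measured beside the enzymes. In SCNT the oocyte loses its own chromosomes, and neither H3K27me3 nor the copy in use was measured here. The values are therefore levels of RNA and do not describe such imprinting in the clones. All 6 listed genes were under 1 FPKM in 1-cell and early 2-cell embryos and above it in late 2-cell embryos, so each passed the filter only through the late column and the count of 6 at least 2-fold higher carries no weight of its own. Sfmbt2 was at 18.8 FPKM in late 2-cell and 0.062 FPKM in early 2-cell embryos. Xist, the RNA that silences an X chromosome, was at 10.8 against 0.29 FPKM, and Jade1 at 10.9 against 0.54 FPKM. With TSA these values were close to those without: Sfmbt2 was at 23.1 against 18.8 FPKM (0.29), Jade1 at 12.5 against 10.9 FPKM (0.19) and Xist at 10.2 against 10.8 FPKM (-0.07). Of 50 developmental regulators known as Polycomb targets in mouse embryonic stem cells, 5, 4, 3 and 4 reached 1 FPKM in 1-cell, early 2-cell, TSA-treated late 2-cell and untreated late 2-cell embryos, and 17, 34, 28 and 25 were listed at 0. Hoxa7 was at 17.5 FPKM with TSA, against 17.1 FPKM without, and Gata4 at 12.3 against 11.8 FPKM.

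**Figure D5:**
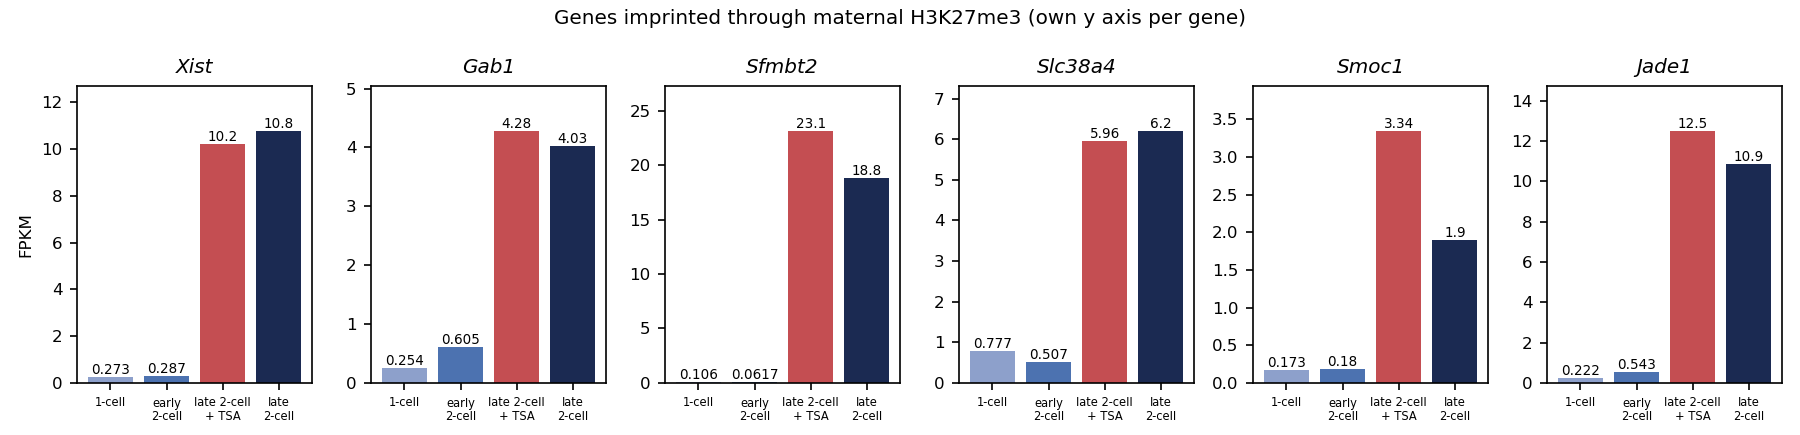
FPKM (y axis, linear, own scale per gene) of 6 genes known to be imprinted through maternal H3K27me3, in untreated 1-cell and early 2-cell, TSA-treated late 2-cell and untreated late 2-cell embryos, 1 bar for the authors' value of each group. The bars of the first 2 stages are all under 1 FPKM, and the late 2-cell bars with and without TSA are of similar height except in Smoc1, at 3.34 FPKM with TSA and 1.90 FPKM without.

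Markers of other cell types were also at different levels between the columns. The 20 cumulus and granulosa markers summed to 34.6 FPKM in 1-cell, 44.8 in early 2-cell, 75.2 in TSA-treated late 2-cell and 122 in untreated late 2-cell embryos, with 7, 8, 8 and 7 of them at 1 FPKM or more. Their medians were 0.46, 0.58, 0.37 and 0.58 FPKM in this order. Anxa2 alone was at 67.0 FPKM in untreated late 2-cell embryos, and Gja1 at 34.7 FPKM with TSA. Inha was listed at 0 in 3 of the columns, all but the 1-cell one, and Fshr, the receptor that defines these cells, at 0 with TSA and 1.64 FPKM without. The 7 blood markers summed to 0.57, 0.52, 70.0 and 52.8 FPKM in the same order of groups, with Ptprc and Tyrobp listed at 0 in both late 2-cell columns. With TSA the sum was carried by Hba-a1 (49.96 against 32.93 FPKM) and Lyz2 (14.4 against 3.46 FPKM), while Cd74 (1.01 against 4.93 FPKM) and Cd52 (4.47 against 11.04 FPKM) were lower. Whether such cells were present, and their part in the Polycomb values, was not tested.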

How the data were processed

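The authors deposited 1 table of log2(FPKM + 1) values per gene, per the file headers. Per the submitters' processing notes the build was mm10, and Cufflinks, StringTie 1.3.4 and HISAT2 2.1.0 are among the tools listed, with no role or order. Annotation and the way libraries were combined are stated nowhere in these sources. Of 6 columns of values, 4 were matched to groups of the labels, the 1-cell column by its name of 13 h, and 2 match no RNA library and were not used. Values were turned back into FPKM, and differences were taken after adding 1 FPKM again, which understates differences of low genes. Genes with at least 1 FPKM in either column were kept, and 2-fold was the counting threshold. A gene kept through only 1 of the columns is higher in that column by the filter. With 1 value per group no test was possible and depth is unknown. The members and lists were chosen with earlier results of these data known. Named were all 10 members and, per other list and comparison, a choice from the 3 genes of highest and the 3 of lowest difference that had 5 FPKM or more in either column. Genes outside this rule were named too, among them Pcgf2 as a paralog and Cbx7, Phc1, E2f6, Auts2 and Fbrs in counts after scaling. Smoc1 and the late minus early value of Usp16 also lie outside it. Gene positions, synonyms and promoters came from RefSeq (GRCm38.p6), and 1 listed marker was not found. Python 3.11.15, pandas 2.3.3, NumPy 2.4.6 and matplotlib 3.10.9 were used, and the counting and scaling were tested on simulated data. Alternatives were pseudocounts of 0.1 and 5 FPKM, no filter or one of 5 FPKM, median-ratio scaling, quantile normalization and a threshold of 1.5-fold.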

Additional observations from a re-analysis of the deposited data

How the results depend on the processing

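The counts of members at least 2-fold apart were 0 with TSA, 1 at the first cleavage and 3 between the 2-cell stages. They were the same with pseudocounts of 0.1 and 5 FPKM, with no filter and with a filter of 5 FPKM. At a threshold of 1.5-fold they were 1, 2 and 5. Median-ratio scaling gave 7 and quantile normalization 5 between the 2-cell stages, all lower, and left the other counts as they were. Over all 12794 genes kept there, 4590 and 3414 were 2-fold higher and 2360 and 3301 lower under the 2 scalings. As deposited 6128 were higher and 1399 lower. No member that was 2-fold apart had the opposite sign under any of these alternatives. The count of other complex genes 2-fold higher between the 2-cell stages was 20 as deposited, 9 with a pseudocount of 5, 12 with the stricter filter, 12 after median-ratio scaling and 6 after quantile normalization, and 4, 4, 4, 6 and 9 were lower in the same order. With TSA these counts were 0 higher and 0 lower as deposited and at most 2 higher and 7 lower. The cause of these shifts was not tested. Leaving out libraries was not run, since the columns are not single libraries. No paired analysis was possible because the columns carry no replicate numbers.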
